A study of Mus musculus with 5 samples.

Results

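The genes described here are 33 members of the G2/M program, the set of genes that cells switch on to prepare for and pass through mitosis. They were chosen by name, and all 33 were found by symbol among the 27998 genes of the deposited table. Their summed UMIs (unique molecular identifiers, each standing for 1 captured RNA molecule) per 10,000 UMIs of a group of cells is called the module level. The data are droplet single-cell RNA sequencing of epithelial cells from the ileum, the distal part of the small intestine, of C57BL/6 mice aged 8 to 12 weeks. There were 3 libraries from mice with sham surgery (sham 1, 2 and 3) and 2 from mice with small bowel resection, removal of a length of small intestine (resection 1 and 2). The series asked how the remaining bowel adapts to a massive resection. The time after surgery, the number of mice behind each library and any pooling were not given in the sources used here, so a spread between libraries may be technical in part.

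In G2, cyclins A and B accumulate and activate the kinase Cdk1, which drives the condensation of chromosomes and the assembly of the spindle. A checkpoint at the kinetochores then holds back the anaphase-promoting complex (APC/C), a ubiquitin ligase that, once released, has cyclin B and securin destroyed so that the sister chromatids part and the cell divides. In the small intestine these divisions take place in the crypts, among stem cells at the base and fast-cycling progenitors above them, while enterocytes of the villus have left the cell cycle. Paneth cells, also at the crypt base, are likewise postmitotic.

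Total depth lay between 11749028 UMIs (sham 1) and 41281731 UMIs (resection 2), and 18235 of the 19404 deposited cells were kept, from 1283 in sham 1 to 6701 in resection 2. The median depth per kept cell was 4524 to 6202 UMIs. The libraries formed 2 sets that cut across surgery: sham 1 with resection 1 (set A), and sham 2 and sham 3 with resection 2 (set B). Clustered without scaling within libraries, a pair within a set shared 31.8% to 46.4% of its cluster composition and a pair across sets 3.35% to 6.07%. After genes were scaled within each library, which is how the classes below were made, the overlap no longer followed the sets. It was 59.9% for the pair of set A, 76.7% to 85.4% within set B and 61.2% to 79.8% across sets. Resection 1 shared least, at 59.9% to 64.6% with each other library. Between 6 and 47 cell barcodes were shared by a pair of libraries. Each group has a library in each set, so values within the sets are given beside the results.

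The 33 members were left out of the genes used for clustering. The class called cycling-like here held 970 cells, 48, 154 and 221 from the sham libraries and 220 and 327 from the resection libraries. Its cycling markers were well above those of enterocyte-like cells, with Hmgb2, a chromatin protein of dividing cells, at a mean of 14.2 against 0.474 UMIs per 10,000. The class called stem-like held 657 cells, and its leading genes were Hells, Slc12a2, Stmn1, Dut, Cdca7 and Mcm6, of which Hells, Dut and Mcm6 act in DNA replication. Its stem markers Slc12a2 (3.16), Cdca7 (1.40) and Smoc2 (0.681 UMIs per 10,000) exceeded their levels in cycling-like cells. Lgr5, the defining receptor of crypt base stem cells, was low but also higher, at 0.148 against 0.0765. The cycling markers Stmn1 (6.22 against 4.98) and Tubb5 (3.45 against 3.31) also exceeded their levels in cycling-like cells, and the other cycling markers were lower. The name therefore does not set stem cells apart from replicating progenitors. In cycling-like cells the T cell marker Cd3e was near 0 (0.00460 UMIs per 10,000 on average). The stromal markers Col1a1, Col1a2 and Dcn were at 0 UMIs there. Markers of other classes were not absent from these cells. Over the libraries, summed Paneth markers stood at 20.8 to 57.3 UMIs per 10,000 and summed enterocyte markers at 35.3 to 97.1. Summed T cell markers stood at 0.128 to 0.855. The part of free RNA in these values was not tested.

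The module level was highest in cycling-like cells, where sham 1, 2 and 3 had 40.8, 53.2 and 49.4 UMIs per 10,000 and the resection libraries 44.7 and 45.5. Stem-like cells came next, with 19.1, 16.5 and 15.6 in sham and 20.2 and 14.2 after resection. Every library held the 2 classes apart, since the lowest cycling-like value lay above the highest stem-like value. Immature enterocyte-like cells had 2.47 to 3.66 UMIs per 10,000 over the 5 libraries. This class joins a cluster led by Gsdmc genes (2783 cells) and another of 1134 cells. The latter scored almost alike on immature enterocyte markers (0.636) and on enterocyte markers (0.614). Enterocyte-like cells had 0.948 to 1.43. Paneth-like cells were lowest in the mean of the 5 libraries, at 0.368 to 1.27, and their range overlapped that of enterocyte-like cells. Goblet-like cells, the mucus-secreting lineage, had 2.83 to 11.1 and T cell-like cells 3.39 to 7.56, and both ranges overlapped the highest values of immature enterocyte-like cells. These levels describe clusters and carry no test, because genes that vary with the members helped to form the clusters.

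**Figure D1:**
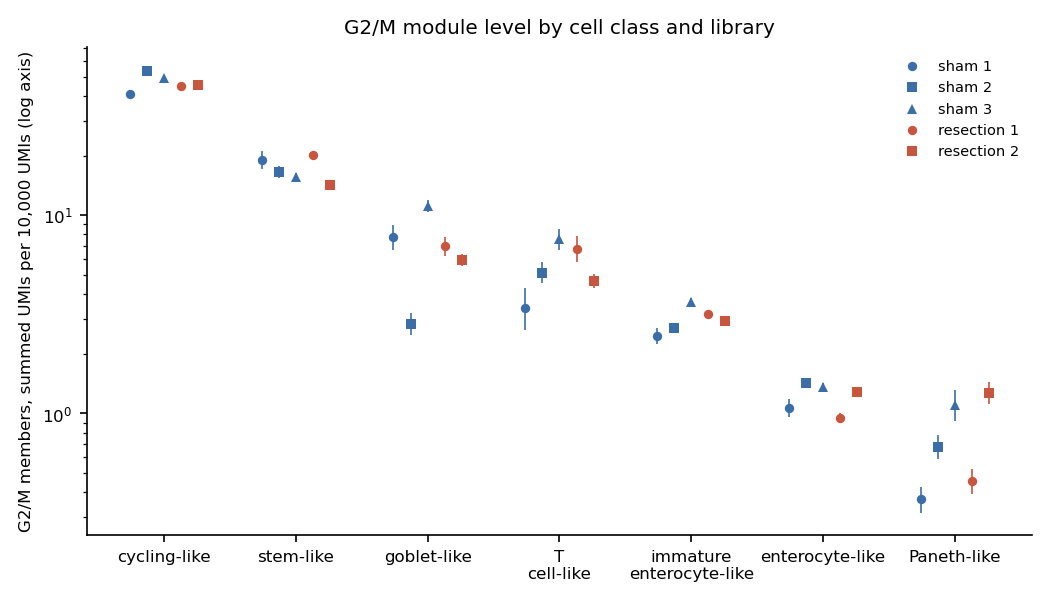
Module level (summed UMIs of the 33 members per 10,000 UMIs, log axis) in each cell class, 1 point per library with its exact Poisson 95% interval, which covers counting error only. Cycling-like cells sit between 40.8 and 53.2 in all 5 libraries, stem-like cells between 14.2 and 20.2, and the other classes drawn below both.

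Most of the module's RNA sat in few cells. Cycling-like cells made up 5.32% of all kept cells and held 59.9% of the members' UMIs, whereas enterocyte-like cells, 58.2% of the cells, held 11.0%. Stem-like cells held 9.67% of the UMIs in 3.60% of the cells. To count cells at equal depth, each cell was thinned to 2000 UMIs. Of the 18235 cells 12669 then had no UMI of a member, 3456 had UMIs of 1 member and 980 (5.37%) had UMIs of at least 5. This last range is set by a threshold and is not a cell type: 174 cells had 4 members and 154 had 5. Of the 980 cells 727 were cycling-like (74.2%), 143 stem-like, 52 immature enterocyte-like and 6 enterocyte-like.

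The cells with at least 5 members were not all of the absorptive line. In goblet-like cells they numbered 30, with a module level of 42.7 UMIs per 10,000 against 3.24 in the other 527 goblet-like cells, and with S phase genes (a list of 39 genes of DNA replication) at 13.3 against 4.40. These 30 cells kept the goblet markers, among them Muc2 and Tff3, at a summed 294 UMIs per 10,000, against 519 in the other goblet-like cells. T cell-like cells held 20 such cells, with a module level of 52.4 and T cell markers at 149 UMIs per 10,000, against 59.0 in the other T cell-like cells. None of the 1037 Paneth-like cells had 5 members after thinning, which allows a share of up to 0.289% for counting error alone. Their median depth before thinning was 10092 UMIs, so thinning removed most of their counts. Without thinning, 0.826% to 4.20% of Paneth-like cells had at least 5 members over the libraries. Cells with at least 5 members were deeper than the other cells before thinning, with a median of 7350 against 4980 UMIs. This held in 4 of 5 libraries, and in sham 1 the medians were 5330 and 5472 UMIs. Of the 1037 such cells present before doublet removal 57 (5.50%) had been marked as doublets. They made up 7.92% of the 720 cells removed as doublets and 5.37% of the 18235 kept cells. The part of remaining doublets in these counts was not tested.

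Levels of the single members spanned more than an order of magnitude within cycling-like cells. The protocol counts 1 tag at the 3′ end of each molecule, so a level in UMIs does not grow with gene length. The 5 most abundant members (Ube2c, Cks2, Birc5, Top2a and Mki67) made up 37.5% of the module and the 10 least abundant 10.9%. The ratio of the highest to the lowest library had a median of 1.64 over the members, from 1.12 for Cenpf to 3.04 for Smc2.

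Genes of the cyclin and Cdk1 engine gave 19.1% of the module in cycling-like cells. Cks2 (ENSMUSG00000062248), a small subunit that binds Cdk1, stood at 2.34, 4.83 and 5.15 UMIs per 10,000 in the sham libraries and at 2.69 and 3.71 after resection. Its lowest values were those of the 2 libraries of set A, and the surgery groups overlapped. Cdk1 itself had 0.919, 1.79 and 1.66 in sham and 1.29 and 1.43 after resection. Of the cyclins, Ccna2 was at 1.81, 1.46 and 1.37 in sham and 1.85 and 1.27 after resection. Ccnb1 and Ccnb2, the B-type cyclins that carry the cell into mitosis, ranged from 0.8003 to 1.34 and from 0.860 to 1.58 over the libraries. Ccna2 was highest in set A, the reverse of Cks2 and Cdk1.

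The members that act on the APC/C and on cohesion gave 16.3%. Ube2c (ENSMUSG00000001403), the ubiquitin-conjugating enzyme that starts chains for the APC/C, was the most abundant member, at 3.65, 5.60 and 5.33 UMIs per 10,000 in sham and 3.83 and 4.801 after resection. Cdc20 (ENSMUSG00000006398), the activator of the APC/C in mitosis, had 2.10, 3.24 and 1.93 in sham and 2.14 and 1.91 after resection. Sham 2 was the highest library for both genes, and the resection values lay inside or just below the sham range. Pttg1, which encodes securin, the inhibitor of separase, was among the lowest members at 0.343 to 0.667. Bub1, a kinase of the spindle checkpoint, was lower still at 0.207 to 0.275.

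Mitotic kinases and the chromosomal passenger complex gave 14.7%. Birc5 (survivin, ENSMUSG00000017716) belongs to the passenger complex that corrects faulty attachments of chromosomes, and it had 2.46, 4.36 and 4.19 in sham and 3.06 and 3.63 after resection. Cdca8 (borealin), of the same complex, had 1.10 to 1.91, and its kinase Aurkb 0.445 to 0.614. Aurka, the kinase of the spindle poles, had 0.563, 0.998 and 0.833 in sham and 0.630 and 0.625 after resection. Plk1, a kinase needed for centrosome maturation and mitotic entry, had 0.474 to 0.646. Birc5 was thus several times as abundant as any of the 3 kinases in each library.

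Chromosome structure and surface genes gave 18.9% of the module. Top2a (ENSMUSG00000020914), the topoisomerase that untangles sister DNA, was at 3.32, 2.65 and 2.82 in sham and 3.16 and 3.05 after resection. Mki67, which coats the surface of mitotic chromosomes and is the usual marker of proliferation, was at 3.35, 2.03 and 2.23 in sham and 3.28 and 2.12 after resection. The 2 libraries of set A were thus the highest for both genes whatever the surgery. Smc4 and Smc2 (ENSMUSG00000028312) are the core pair of condensin, which compacts chromosomes. Smc4 had 1.75 to 2.25 over the libraries, while Smc2 had 0.504 in sham 1 against 1.39, 1.46, 1.19 and 1.53 in sham 2, sham 3, resection 1 and resection 2.

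Centromere and kinetochore genes gave 12.96%, with Cenpa, the centromeric histone, at 1.22, 2.45 and 1.87 in sham and 1.97 and 1.85 after resection. Cenpf, a large kinetochore protein, was the steadiest member at 1.53 to 1.72 UMIs per 10,000. Cenpe, a kinetochore motor, had 0.976 to 1.60, Knstrn 0.622 to 0.856 and Spc25, of the Ndc80 complex that grips microtubules, 0.296 to 0.696. Spindle genes gave 7.70%, led by Nusap1, a microtubule-bundling protein, at 0.949 to 1.12. Kif11, the motor that pushes the poles apart, had 0.568 to 0.876, Tpx2 0.605 to 0.695, Tacc3 0.572 to 0.707 and Hmmr 0.356 to 0.739. Genes of the midzone and of cytokinesis gave 5.79%. Kif23 and Racgap1 form the centralspindlin complex and had 0.664 to 1.10 and 0.717 to 0.919. Prc1, which bundles midzone microtubules, had 0.690 to 1.01, and the motor Kif20a was the lowest of all members at 0.103 to 0.292. Cdca3, linked to entry into mitosis, stood at 1.66 to 2.46.

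**Figure D2:**
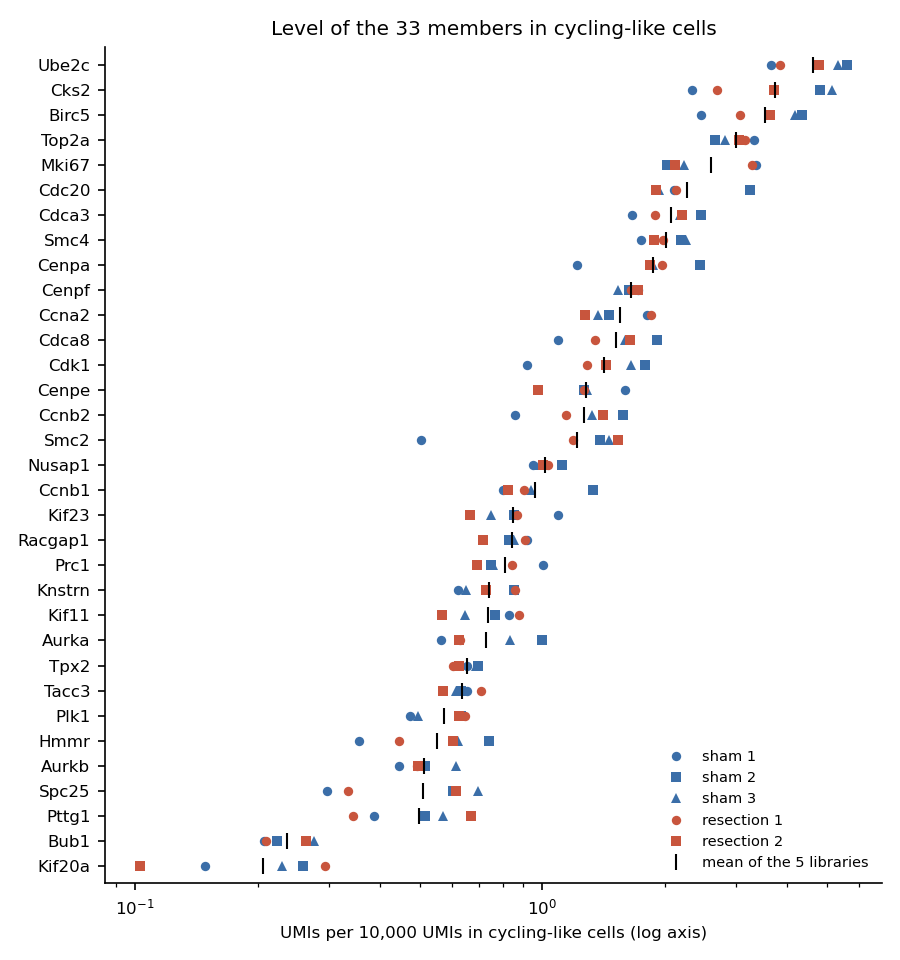
UMIs per 10,000 UMIs (log axis) of each of the 33 members in cycling-like cells, 1 point per library and a tick at the mean of the 5 libraries. Ube2c leads with a mean of 4.64 and Kif20a is lowest, and the surgery groups overlap for every member except Tpx2.

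The members differed in how far they reached into the stem-like class, whose cells are rich in replication genes. The S phase list stood at 28.6 to 36.8 UMIs per 10,000 in stem-like cells and at 9.51 to 17.4 in cycling-like cells. On the scale of mean levels over the libraries, Ube2c was lower in stem-like than in cycling-like cells by a log2 ratio of -2.43, Cdc20 by -2.38 and Cenpa by -2.11. Smc2 (-0.43), Pttg1 (-0.52), Spc25 (-0.63), Smc4 (-0.84) and Top2a (-0.85) came closest to equal levels. Ube2c had 0.958, 0.729 and 0.715 UMIs per 10,000 in sham stem-like cells and 1.17 and 0.749 after resection. Smc2 had 0.620, 0.857 and 1.16 in sham and 0.858 and 1.01 after resection. Chromosome structure genes therefore made up 28.7% of the module in stem-like cells against 18.9% in cycling-like cells, and APC/C and cohesion genes 10.2% against 16.3%.

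Within the cycling-like class the members also split. It held 3 clusters, with module levels of 49.5 to 62.3 (463 cells), 37.1 to 46.4 (345 cells) and 29.0 to 40.3 UMIs per 10,000 (162 cells). The third of these scored almost alike on the stem markers and on the cycling markers (0.807 and 0.809 on a scale up to 1). From the first cluster to the second, Top2a was lower by a log2 ratio of -0.90, Cenpf by -0.88 and Smc2 by -0.88. Cdc20 (-0.05), Ccnb2 (-0.06) and Knstrn (-0.08) were close to level between them, and Pttg1 was the single member with a positive ratio (0.14). S phase genes stood at 10.3 to 19.4 UMIs per 10,000 in the first cluster and at 6.29 to 14.4 in the second.

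Another order, not independent of the class levels above, came from asking how much S phase RNA accompanied each member in the same cell. For each member, the S phase level was taken over the stem-like and cycling-like cells with at least 1 UMI of it, after thinning. Over all such crypt cells the S phase level of the sham libraries was 17.8, 18.4 and 25.4 UMIs per 10,000, and resection gave 19.1 and 20.04. Cells with Cdc20 had the lowest level, 8.13, 9.79 and 15.3 in sham and 12.2 and 13.3 after resection, below the mean of all crypt cells in each library. Cenpa (12.7 in the mean of the 5 libraries), Ccnb2 (12.9), Hmmr (13.2), Cenpf (13.8) and Ccnb1 (13.9) followed. At the other end, cells with Smc2 had 24.6, 21.6 and 27.4 in sham and 20.3 and 23.1 after resection, above the mean in each library. Top2a (21.4) and Aurkb (21.1) came next below it. The ends of this order were 1.99-fold apart, 19 of the 33 members lay below the library's mean in 5 of 5 libraries, and Smc2 alone lay below it in none. That mean pools stem-like cells (S phase genes at 32.0 UMIs per 10,000 in the mean of the libraries) with cycling-like cells (12.7). A member concentrated in cycling-like cells therefore tends to fall below it through the mix of classes, and the order was not taken within each class. Neighbours in the order differed by less than their spread over libraries. Values of the rarest members rest on few cells, with as few as 3 in a library for Hmmr and Kif20a. The ends of the order also rest on few, with a lowest count in a library of 16 for Cdc20, 15 for Cenpa, 10 for Ccnb2 and 12 for Smc2. Sham 1 had 79 crypt cells in all. The 2 programs overlapped within cells, since 25.8% of crypt cells (mean of the 5 libraries) had at least 5 members together with at least 3 UMIs of S phase genes.

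**Figure D3:**
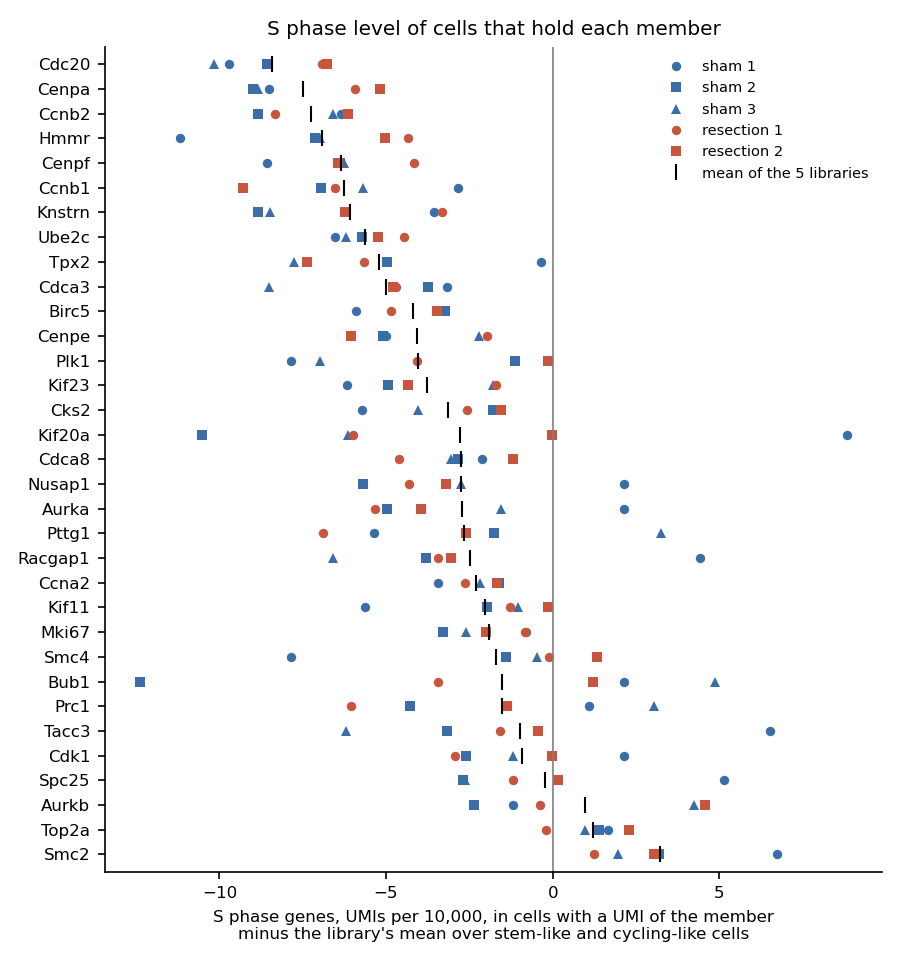
S phase level (UMIs per 10,000 after thinning) of the stem-like and cycling-like cells that hold a UMI of each member, minus the mean of all such cells of the library, 1 point per library and a tick at the mean of the 5 libraries. Cdc20, Cenpa and Ccnb2 lie below 0 in all 5 libraries, and Smc2 lies above 0 in all 5.

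Promoter sequences are shown for the members at both ends of this order. Cdc20, Cenpa and Ccnb2 had the lowest S phase level, Ube2c was the most abundant member, and Top2a and Smc2 had the highest S phase level. Each line gives the 200 bases before the start site on the gene's strand, 5′ to 3′, from RefSeq on build GRCm38.p6, with matches on either strand to the motifs of the next paragraph in capitals. Cdc20 lies at chr4:118437344-118437543 on the minus strand, Cenpa at chr5:30666686-30666885 on the plus strand and Ccnb2 at chr9:70421555-70421754 on the minus strand. Ube2c lies at chr2:164769729-164769928 (plus), Top2a at chr11:99024190-99024389 (minus) and Smc2 at chr4:52439021-52439220 (plus).
Cdc20: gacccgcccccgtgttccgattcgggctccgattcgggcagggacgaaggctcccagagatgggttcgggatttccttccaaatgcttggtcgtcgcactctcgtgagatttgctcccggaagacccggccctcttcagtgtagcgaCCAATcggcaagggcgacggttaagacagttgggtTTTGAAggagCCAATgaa
Cenpa: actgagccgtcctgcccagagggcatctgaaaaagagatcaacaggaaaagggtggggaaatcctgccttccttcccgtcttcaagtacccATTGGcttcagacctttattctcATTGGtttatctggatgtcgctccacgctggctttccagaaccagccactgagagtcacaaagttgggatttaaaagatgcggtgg
Ccnb2: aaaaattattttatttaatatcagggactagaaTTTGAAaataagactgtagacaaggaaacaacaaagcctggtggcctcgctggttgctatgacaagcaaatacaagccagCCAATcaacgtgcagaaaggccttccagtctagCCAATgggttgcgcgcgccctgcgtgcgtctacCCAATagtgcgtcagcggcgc
Ube2c: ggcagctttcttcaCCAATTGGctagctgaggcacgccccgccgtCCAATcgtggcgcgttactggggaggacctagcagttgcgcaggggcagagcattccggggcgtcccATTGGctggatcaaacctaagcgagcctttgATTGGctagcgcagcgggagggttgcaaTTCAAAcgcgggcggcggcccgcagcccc
Top2a: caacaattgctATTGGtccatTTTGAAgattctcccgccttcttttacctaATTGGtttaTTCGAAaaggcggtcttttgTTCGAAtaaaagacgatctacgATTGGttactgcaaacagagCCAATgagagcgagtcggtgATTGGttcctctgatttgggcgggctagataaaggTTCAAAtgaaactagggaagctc
Smc2: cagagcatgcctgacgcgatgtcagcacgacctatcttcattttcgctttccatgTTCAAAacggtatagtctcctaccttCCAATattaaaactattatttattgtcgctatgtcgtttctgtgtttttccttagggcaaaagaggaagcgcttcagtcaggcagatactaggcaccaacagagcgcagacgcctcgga

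CCAAT is the core of the box bound by NF-Y, and TTTGAA or TTCGAA is the core of the cell cycle genes homology region, which is bound by the MuvB complexes that time mitotic genes. TTTNGCG was searched as an E2F type motif of S phase genes. All were searched on both strands of windows of 250 bases before and 50 after each start site, and overlapping matches were each counted. Of the 33 members 28 had a window in the promoter table. CCAAT was found in 23 of them (82.1%), against 41.1% of all 27025 genes in the table. TTTGAA or TTCGAA was found in 20 (71.4%), against 21.7% of all genes, and 20 held both motifs (71.4% against 8.61%). TTTNGCG was found in 3 (10.7%, those of Cdk1, Cdca8 and Racgap1), against 4.81% of all genes. The list of 39 S phase genes showed another mix, with CCAAT in 19 of 31 windows (61.3%), TTTGAA or TTCGAA in 5 (16.1%) and TTTNGCG in 14 (45.2%). The list of 50 other mitotic genes resembled the members in TTTGAA or TTCGAA, with 28 of 39 (71.8%). It was lower than the members in CCAAT, with 24 (61.5%), and in both motifs together, with 20 (51.3%). A list of 21 G1 and cell cycle exit genes had CCAAT in 9 of 15 (60%). These shares are descriptions and were not tested.

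TTTGAA or TTCGAA lay within 50 bases on either side of the start in 19 members, and in 13 it lay after the start, outside the stretches printed here. Among the printed genes this was so for Cenpa, Ccnb2 and Smc2, and the upstream stretch of Cenpa holds CCAAT matches alone. The 3 CCAAT matches of Ccnb2 were spaced 33 and 33 bases apart. A pair spaced 31 to 34 bases apart, a distance chosen after the matches were seen, was present in 9 of 28 members (32.1%) against 1.37% of all genes, 2 of 39 other mitotic genes and 1 of 31 S phase genes. Cdk1, Ccnb1, Ccnb2, Ube2c, Aurka, Cdca3, Cdca8, Hmmr and Spc25 were the members with such a pair. Of the printed genes Cdc20, Cenpa, Top2a and Smc2 had none. The windows of Birc5, Nusap1, Knstrn, Pttg1 and Tacc3 held no match to any of the motifs.

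Across the 970 cycling-like cells the thinned counts of the members varied together only weakly. Over 528 pairs the correlation of thinned levels had a median of 0.056 and reached 0.237 for Cdc20 with Ube2c, 0.230 for Cdk1 with Ube2c and 0.222 for Birc5 with Ube2c. It was below 0 for 43 pairs, with a lowest value of -0.0559 for Pttg1 with Smc4. Levels were centred within each library first. Counts this sparse hold correlations near 0, so these values describe the data and do not measure how strong a relation is. They were not tested.

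Outside the crypt classes nearly all members were low, and Pttg1, the securin gene, stood apart. In enterocyte-like cells the median member stood at 0.963% of its level in cycling-like cells, and 28 of the 33 stood at or below 5%. Pttg1 was at 49.3% (38.7% to 58.5% over the libraries), with 0.149, 0.256 and 0.282 UMIs per 10,000 in sham and 0.201 and 0.336 after resection. Those values were of the order of its own level in cycling-like cells, 0.343 to 0.667. After thinning, 5.24% of enterocyte-like cells held a Pttg1 UMI against 10.0% of cycling-like and 1.45% of Paneth-like cells. Cks2 came next at 7.57% of its cycling-like level (5.70% to 10.7%), followed by Kif23 (6.70%), Cdca8 (6.01%) and Smc4 (5.38%). The ratios ran from 0.525% (Tpx2) to 49.3% (Pttg1), and the part of free RNA in them was not tested.

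In immature enterocyte-like cells the median member stood at 3.72% of its cycling-like level. Pttg1 was again highest at 77.6%, followed by Cks2 at 18.9% and Kif23 at 12.7%, and 11 members exceeded 5%. In Paneth-like cells the median was 1.46% and Pttg1, at 10.9%, was the single member over 5%. As a result the cyclin and Cdk1 group and the APC/C and cohesion group made up 26.2% and 24.9% of the little module RNA of enterocyte-like cells, and the spindle group 2.61%.

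**Figure D4:**
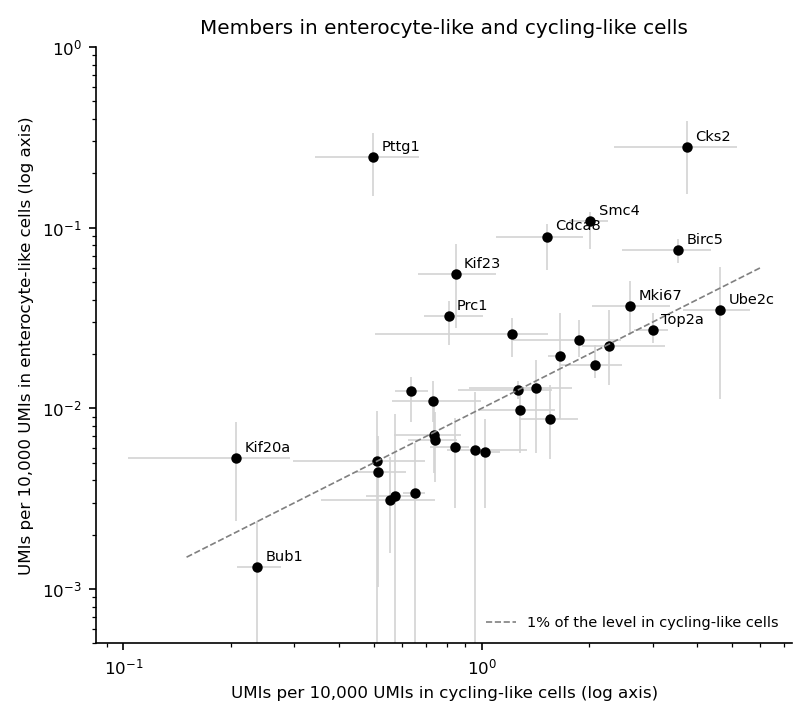
Mean level over the 5 libraries of each member in cycling-like cells (horizontal) and in enterocyte-like cells (vertical), in UMIs per 10,000 on log axes, with bars from the lowest to the highest library and a dashed line at 1%. A bar that reaches the lower edge has a library at 0 or below the axis. Pttg1 stands far above the line, and Cks2, Kif23, Cdca8 and Smc4 above 5%.

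The comparison of surgery groups asked whether resection changed how many crypt cells carried the program and how much of it each carried. In cycling-like cells the sham libraries averaged a module level of 47.8 ± 6.37 (SD, n = 3) and the resection libraries 45.1 ± 0.565 (SD, n = 2), and both resection libraries lay inside the sham range. The difference of -2.64 UMIs per 10,000 was -6.15 without sham 1 and 0.0673 without sham 2, and it was 1.54 when only cells with at most 10% mitochondrial counts were kept. That cut drops most kept cells of the set A libraries, whose median mitochondrial shares were 13.3% (sham 1) and 11.6% (resection 1). As a share of epithelial cells, the cycling-like class was 3.84%, 4.19% and 8.07% in the 3 sham libraries, and resection 1 and 2 had 6.04% and 5.05%. The groups overlapped, and their means of 5.36% ± 2.35 (SD, n = 3) and 5.55% ± 0.695 (SD, n = 2) differed by 0.182 percentage points (exact two-sided permutation test, p = 1, where the smallest p possible with 10 arrangements is 0.2). This difference had no stable sign: it was -0.581 without sham 1, -0.406 without sham 2 and -0.310 without resection 1, and 1.53 without sham 3. Within set A the share was 2.20 points higher after resection, and within set B it was lower (-1.07 points).

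Over all epithelial cells the module level was 2.68, 4.88 and 7.91 UMIs per 10,000 in sham and 5.42 and 5.49 after resection. The resection libraries were close to each other and lay inside a wide sham range (5.16 ± 2.62, SD, n = 3, against 5.45 ± 0.0476, SD, n = 2). Paneth-like cells, which carry very many UMIs and few members, held 43.5%, 14.5% and 5.15% of the epithelial UMIs of sham 1, 2 and 3 and 16.003% and 5.51% of those of resection 1 and 2, in an order opposite to the module level in sham. Without Paneth-like cells the module level was 4.46, 5.60 and 8.27 in sham and 6.37 and 5.73 after resection, a difference of -0.0619 between the means. The share of epithelial cells with at least 5 members was 3.92%, 3.94% and 8.80% in sham and 6.202% and 4.62% after resection, and the groups again overlapped. Sham 3 was the highest library by each of these measures.

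No member passed the test of resection against sham in any of 4 groups of cells. Counts were summed per library and tested across all genes with edgeR's quasi-likelihood test (Benjamini-Hochberg adjusted p under 0.05). In cycling-like cells 0 of 33 members were called, beside 0% of all 9243 genes tested. No member had an unadjusted p under 0.05 in any of the 4 tests, where edgeR gave such a p to 121 genes in cycling-like (1.31%), 82 in stem-like (1.12%), 167 in immature enterocyte-like (1.67%) and 328 in all epithelial cells (2.81%). In stem-like cells 0 of the 31 members tested were called (background 0.0137%), in immature enterocyte-like cells 0 of 26 (0%) and in all epithelial cells 0 of 33 (0%). The members not tested for low counts were Bub1 and Kif20a in stem-like cells, and Aurkb, Plk1, Bub1, Kif11, Kif20a, Hmmr and Spc25 in immature enterocyte-like cells. DESeq2 called 0 members in each group as well. The single call among all genes was Apoa4, an apolipoprotein of enterocytes and no member, in stem-like cells (log2 fold change 3.26 ± 0.47, SE, edgeR adjusted p = 0.0408), and it was lost without sham 2, sham 3 or resection 1.

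In cycling-like cells the members' log2 fold changes of resection over sham ran from -0.43 to 0.19, and 27 of 33 were negative. Their median was -0.13, against -0.00 over all genes. The members' median had no stable sign. It was -0.268 without sham 1 and -0.279 without resection 2, but 0.0165 without sham 2 and 0.0416 without resection 1. A term for the set brought it to -0.00967. Aurka, whose values are given above, had the lowest p at a log2 fold change of -0.43 ± 0.35 (SE, 95% interval -1.21 to 0.35, edgeR adjusted p = 0.99997). Cks2 stood at -0.40 ± 0.46 (-1.41 to 0.61), Cenpe at -0.32 ± 0.29 and Ccnb1 at -0.32 ± 0.35. Of the members that lead their role groups, Ube2c had -0.20 ± 0.39, Birc5 -0.18 ± 0.41, Kif23 -0.24 ± 0.29 and Cdca3 -0.07 ± 0.36. Top2a had 0.08 ± 0.31, Cenpa -0.03 ± 0.39 and Nusap1 -0.03 ± 0.31. Each of these named members had an edgeR adjusted p of 0.99997. The 95% interval lay within a 2-fold change in either direction for 22 of the 33 members. For the other 11 it reached beyond, so a change of that size was not excluded for them. These intervals are for single genes without adjustment, and they do not say whether a 2-fold change would pass the adjusted threshold.

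Counts of members whose groups did not overlap were close to the background or below it. In cycling-like cells 0 members lay above every sham library in both resection libraries (background 5.28%), and 1, Tpx2, lay below (4.02%). In stem-like cells 2 of 31, Cdca8 and Hmmr, lay above (7.16%) and 0 below (4.15%). In immature enterocyte-like cells Nusap1 lay above (5.05%) and Prc1 below (3.31%). Over all epithelial cells no member lay outside the sham range in either direction (18.2% above and 1.9% below among all genes), and the median log2 fold change was -0.01 with 16 positive and 17 negative. The members with the lowest p there were Cks2, Aurka and Kif20a. Cks2 had 0.306, 0.733 and 1.09 UMIs per 10,000 in sham and 0.449 and 0.650 after resection, and its log2 fold change was -0.49 ± 0.46 (SE, edgeR adjusted p = 0.999). Aurka was at -0.31 ± 0.36 and Kif20a at -0.35 ± 0.46, with the same edgeR adjusted p of 0.999.

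**Figure D5:**
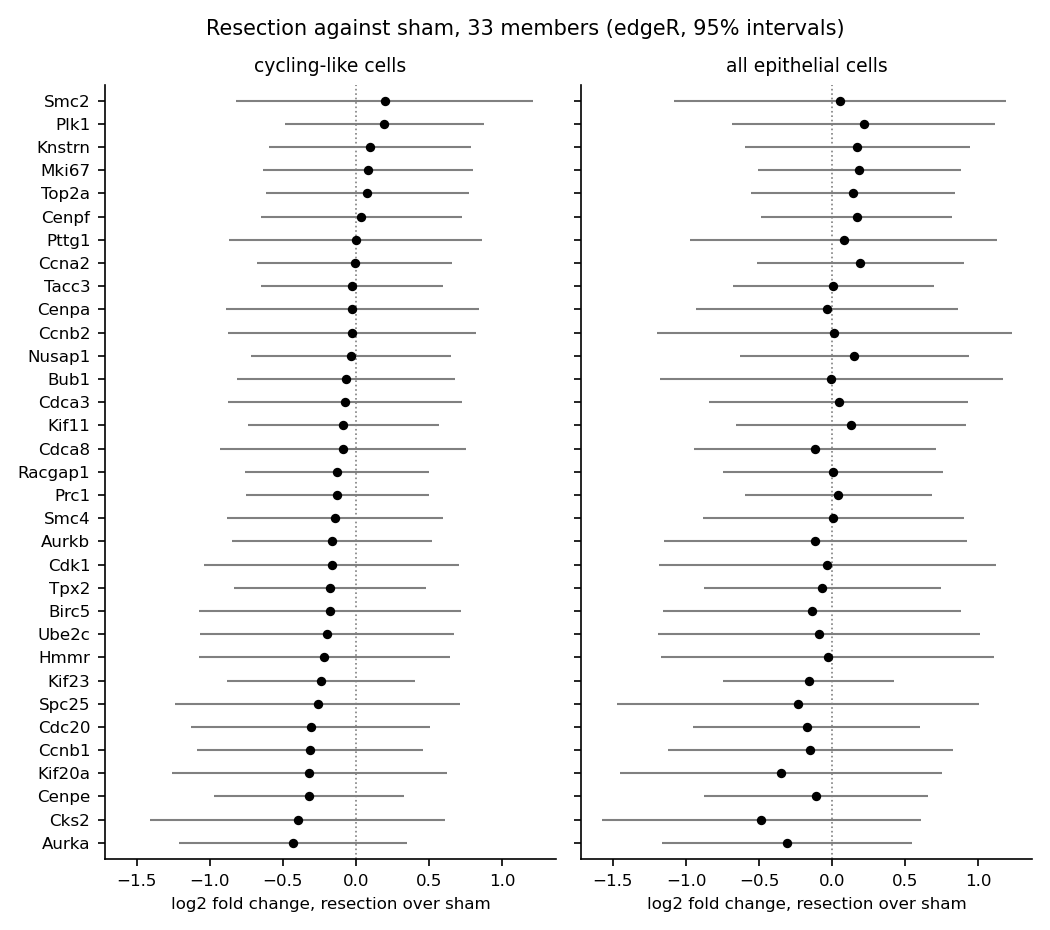
Log2 fold change of resection over sham for each member in cycling-like cells and in all epithelial cells, with 95% intervals from edgeR on counts summed per library (3 sham, 2 resection). Every interval crosses 0, and in cycling-like cells the values run from -0.43 to 0.19.

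The rest of the cell cycle gave the same count of calls in cycling-like cells. Of 50 other mitotic genes all were tested and 0 were called, with a median log2 fold change of -0.01 (23 positive and 27 negative). Sgol2a, a protector of centromeric cohesion, had the lowest p of that list at -0.46 ± 0.31, and Mybl2, a transcription factor of the mitotic MuvB complex, stood at -0.62 ± 0.43. Of 38 S phase genes tested 0 were called, with a median of -0.05 (17 positive and 21 negative). Gins1, of the replicative helicase, had 0.178, 0.116 and 0.179 UMIs per 10,000 in sham and 0.108 and 0.0839 after resection, with a log2 fold change of -0.77 ± 0.36, and Ung, which removes uracil from DNA, was at -0.59 ± 0.48. Of 20 G1 and cell cycle exit genes 0 were called, with a median of -0.11 (7 positive and 13 negative). Cdk2 (-0.55 ± 0.39) and the CDK inhibitor Cdkn1a (-0.49 ± 0.37) had the lowest p of that list. These 6 named genes had an edgeR adjusted p of 0.99997 each, and no gene of the 3 lists had an unadjusted p under 0.05.

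The members' levels also split by the set of the library. In cycling-like cells 8 members were higher in both set A libraries than in the other 3: Mki67, Top2a, Ccna2, Kif11, Kif23, Prc1, Racgap1 and Tacc3 (background 39.1% of all genes tested). Another 13 were lower in both, among them Ube2c, Cks2, Birc5, Cdk1, Ccnb2, Smc2 and Spc25 (background 16.7%). Of the 4 midzone genes Kif23, Prc1 and Racgap1 were in the first group and Kif20a in neither, and the passenger complex genes Birc5, Cdca8 and Aurkb were in the second. No test of the sets was made, since the sets were defined from the data.

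The direction of the surgery difference also went with the set. In cycling-like cells 24 of 33 members were higher in resection 1 than in sham 1, where 50.6% of all genes were. In set B 6 of 33 were higher in resection 2 than in the mean of sham 2 and sham 3, where 46.4% of all genes were, and 3 members were higher in both sets, as were 23% of all genes. The module level showed the same turn, with a difference of 3.98 UMIs per 10,000 within set A and -5.75 within set B. Smc2 and Kif20a, singled out after their values were seen, differed most: Smc2 in set A, at 0.504 in sham 1 and 1.19 in resection 1, and Kif20a in set B, at 0.258 and 0.229 in sham and 0.103 after resection. Over all epithelial cells 33 of 33 members were higher in resection 1 than in sham 1 (background 82.5%), beside the Paneth-like UMI shares of 16.003% and 43.5% in those libraries, and 3 of 33 were higher within set B (53.5%). Set A compares 1 library with 1, and sham 1 rests on 48 cycling-like cells, so neither set on its own carries a test.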

How the data were processed

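The authors deposited 1 matrix of raw UMI counts for each library, made with Cell Ranger, whose version the labels give only with a question mark. The builds GRCm38 and mm10 are named per the submitters' processing notes. Cells with at least 500 genes and at most 20% mitochondrial counts passed, and 720 simulated-neighbour doublets were removed (0.8% per 1000 cells). For the 56 symbols shared by several rows the row with the lowest identifier was used, and no member was among them. Counts were scaled to 10,000 per cell, and 2000 variable genes without the 33 members were scaled within each library, a choice made after an unscaled clustering was seen to put crypt cells of sham 1 and resection 1 with immature enterocytes. Then 30 principal components, 20 neighbours and Leiden clustering (scanpy 1.11.5, leidenalg 0.10.2) at resolution 1.0 followed, with a second level of 0.5 for the crypt cluster. Classes were named from fixed markers and end in "-like", and other naming can give other shares.

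The members, lists and markers were chosen with earlier results of these data known. Counts were summed per library and class (at least 20 cells in each) and tested with edgeR 4.0.16 (quasi-likelihood, TMM, filterByExpr, R 4.3.3), with DESeq2 1.42.0 as an alternative, after a check on simulated data. Standard errors are of the log2 fold change. Members named with a test are the most abundant of each role group and the 3 with the lowest p, and 2 of each other list. Cells were thinned to 2000 UMIs for counts of members. Shares used an exact permutation test. The upper limit for 0 cells uses 3 counts and, like the 95% Poisson intervals, covers counting error only. Alternatives were scaling, filters, clustering, doublets, covariates, averaging and leaving out each library. Promoters came from RefSeq (GRCm38.p6), and those of Ccna2, Aurkb, Tpx2, Kif20a and Smc4 were not used here.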

Additional observations from a re-analysis of the deposited data

How the results depend on the processing

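No member was called in any group of cells under any setting tried. Counts of called genes among all genes did move. In cycling-like cells (0 calls) they were 11 with no filter on low counts and 2 with the library set as a term. In stem-like cells (1 call) they were 5 with no filter and 0 to 1 when each library was left out. In immature enterocyte-like cells (0 calls) DESeq2 gave 4, no filter 19 and the set as a term 2, and in all epithelial cells (0 calls) these gave 38, 18 and 2.

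The share of cycling-like cells, 0.182 points higher after resection, became -0.0393 at Leiden resolution 0.5, -2.04 with unscaled clustering, -0.104 with a second level at resolution 1.0 and -1.07 within set B, and -0.581 to 1.53 when each library was left out. At resolution 0.5 a cluster of 181 cells led by Top2a, Stmn1 and Ube2c was left unnamed, so it was not counted as cycling-like. Without doublet removal a cluster of 594 cells with Mki67 and Top2a among its leading genes was also unnamed. The unscaled clustering and the second level at 1.0 were chosen after the data were seen, as were the comparisons within sets. The module level of cycling-like cells, lower by 2.64 (a difference of -2.64), was 3.98 within set A, 3.03 with unscaled clustering, 1.54 with at most 10% mitochondrial counts and -6.15 to 0.0673 when each library was left out. The difference in the share of cells with at least 5 members was 3.06 points with at most 10% mitochondrial counts. This mitochondrial cut drops most kept cells of sham 1 and resection 1. The cause of these changes was not tested.

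Among 271 alternatives for 20 named results 247 kept their direction and side of the threshold and 24 changed sign, none of them past the threshold (log2 fold changes below). In the cycling-like class a term for the set gave 0.00827 for Birc5, 0.0549 for Cdca3, 0.135 for Cenpa and 0.0371 for Nusap1, upper-quartile scaling gave 0.00649 for Cenpa, and clustering with the members gave 0.00319 for Nusap1. Leaving out each library gave -0.471 to 0.0671 for Birc5, -0.349 to 0.158 for Cdca3, -0.287 to 0.293 for Cenpa, -0.166 to 0.108 for Nusap1, -0.0506 to 0.194 for Top2a, -0.541 to 0.0766 for Ube2c and -0.924 to 0.228 for Ung. Over all epithelial cells it gave -0.560 to 0.0199 for Aurka and -0.913 to 0.0674 for Kif20a.

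With the replicate number as a block edgeR called 52 genes in cycling-like, 59 in stem-like, 135 in immature enterocyte-like and 294 in all epithelial cells, 0 of them members. Under the block the log2 fold change was 0.0352 for Aurka in all epithelial cells, 0.00368 for Birc5, 0.000277 for Cdca3, 0.0387 for Cenpa and 0.314 for Ung. The labels do not say that equal numbers pair libraries. Deviations of same-numbered libraries from the mean of their surgery group correlated at 0.735 (sham 1 with resection 1) and 0.444 (sham 2 with resection 2), while sham 3, with no partner, correlated at 0.596 with resection 2. With 2 resection libraries these deviations mirror each other (a correlation of -1), so sham 1 with resection 2 gave -0.735. The values are thus tied to each other by construction and cannot decide whether libraries are paired.

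Cycling-like and stem-like cells were not tested under unscaled clustering (1 and 15 cells in sham 1), nor stem-like cells with a second level at 1.0 (2 cells in sham 1). With that second level only 139 cells were named stem-like and a cluster of 277 was unnamed. A cluster of 269 cells with Hells, Lig1 and Mcm6 among its leading genes was then named cycling-like. Depth limits the rare members, and with 3 and 2 libraries intervals reached from -1.41 to 1.21 in cycling-like cells.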
